A study of Mus musculus with 16 samples.

Results

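The genes described here encode SR proteins, heterogeneous nuclear ribonucleoproteins (hnRNPs) and a few partners, the factors that choose which exons are joined into an mRNA. They are the rows of both normalized count tables whose symbol starts with Srsf or Hnrnp, or is Tra2a, Tra2b, Srrm1, Srrm2, Ptbp1, Ptbp3, Clk1, Clk2, Clk3 or Clk4. The rule gave 40 genes, each present in both tables, out of 15080 genes in the tumor table, 13344 in the stroma table and 11812 in both. They are 10 SR protein genes, 4 SR-related genes, 4 CLK kinase genes, 20 hnRNP genes and 2 polypyrimidine tract binding (PTB) protein genes.

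SR proteins bind short sequences in exons through RNA recognition motifs and recruit the spliceosome through a domain rich in arginine and serine, while hnRNPs coat nascent RNA and often oppose exon inclusion, so that the balance of both kinds sets the outcome at many alternative exons. CLK kinases phosphorylate the arginine and serine domain and release SR proteins from nuclear speckles. Many of these genes limit their own level by splicing their transcripts into forms with a premature stop codon, which nonsense-mediated decay (NMD) removes.

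Libraries came from 4 groups of 4, which are the tumor and stroma fractions of leukemia-bearing bone marrow in wild-type (WT) C57BL/6J mice and in C57BL/6J mice without Il6 (IL-6 KO). Per the study's methods the mice were bought at 6 to 8 weeks of age, each received 500000 BCR-ABL+ B-cell acute lymphoblastic leukemia cells by tail vein, and marrow was taken 8 days later with no drug given. Tumor libraries of both genotypes hold the same injected line, which is BCR-ABL+ and Arf-/- and carries mCherry from a retrovirus, so the injected cells do not differ by genotype. Stroma libraries hold every mCherry-negative cell left after lysis of red cells, and differ by the genotype of the host. The labels number the libraries within a group and do not say whether a tumor and a stroma library of one number came from one mouse, or that each library is one mouse, so the p-values measure the spread between these libraries.

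The values are normalized counts, which are salmon estimates per gene scaled by the authors with DESeq2 in tumor and stroma separately, and the depth of each library is unknown from them. The 10 B lineage markers summed to 142925 to 147951 in WT tumor and 154211 to 161863 in IL-6 KO tumor, against 551 to 1579 over the stroma libraries. Stroma held high erythroid levels (a sum of 41377 to 178681 over 8 markers). Of 10 mesenchymal and endothelial markers 6 were measured there, at a sum of 334 to 601 in WT and 189 to 1691 in IL-6 KO libraries. Cxcl12, Lepr, Pdgfra and Cdh5 had no stroma values. "Stroma" here means mCherry-negative marrow cells. In stroma the small RNA Rn7s1 took 19.2% to 50.1% of all normalized counts in WT and 71.5% to 79.0% in IL-6 KO libraries 1 to 3, while in IL-6 KO stroma 4 it took 10.9% and CT010467.1 took 61.5%. Il6 had values in neither fraction, so the genotype labels could not be checked on the targeted gene.

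To show what lies upstream of genes in this set, the 250 bases before a RefSeq start (GRCm38.p6) were searched on both strands for GGGCGG (the GC box read by Sp1 family factors), CCAAT (the box read by NF-Y), CCGGAAG (an ETS core), CACGTG (an E-box) and TTCNNNGAA (a STAT core). A window was given for 36 of the 40 genes and for 27025 genes in all, and a gene counted as a match if any of its windows held the motif. The windows below belong to 3 genes that fell and 1 that rose in tumor cells of IL-6 KO hosts, read 5′ to 3′ on the gene's strand, with the bases of every match in capitals.
Hnrnpu (chr1:178337816-178338065, minus strand): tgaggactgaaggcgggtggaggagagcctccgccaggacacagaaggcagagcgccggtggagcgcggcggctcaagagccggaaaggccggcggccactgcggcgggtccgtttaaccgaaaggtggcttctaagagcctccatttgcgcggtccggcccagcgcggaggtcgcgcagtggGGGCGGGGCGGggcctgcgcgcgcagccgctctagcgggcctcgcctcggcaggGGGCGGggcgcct
Hnrnpd (chr5:99978939-99979188, minus strand): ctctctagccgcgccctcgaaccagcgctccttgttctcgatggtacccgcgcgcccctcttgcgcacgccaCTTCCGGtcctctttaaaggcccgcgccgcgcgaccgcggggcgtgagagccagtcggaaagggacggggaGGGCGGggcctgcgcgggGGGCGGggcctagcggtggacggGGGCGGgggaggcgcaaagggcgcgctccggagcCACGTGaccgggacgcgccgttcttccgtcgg
Hnrnph1 (chr11:50376740-50376989, plus strand): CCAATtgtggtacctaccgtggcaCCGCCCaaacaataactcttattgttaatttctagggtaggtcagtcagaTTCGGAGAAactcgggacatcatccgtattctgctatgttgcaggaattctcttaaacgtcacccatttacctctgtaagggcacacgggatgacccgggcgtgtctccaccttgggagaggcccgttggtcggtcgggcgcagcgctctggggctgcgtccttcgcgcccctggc
Hnrnpa0 (chr13:58128557-58128806, minus strand): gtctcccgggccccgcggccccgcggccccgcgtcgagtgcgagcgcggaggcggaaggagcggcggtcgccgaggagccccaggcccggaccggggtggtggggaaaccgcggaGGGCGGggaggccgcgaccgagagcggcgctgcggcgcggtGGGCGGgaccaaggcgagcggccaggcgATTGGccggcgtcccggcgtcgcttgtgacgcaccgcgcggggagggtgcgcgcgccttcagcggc

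GGGCGG was the motif most of these genes held, in 29 of 36 (80.6%), against 35.4% of all genes and 65.2% of the 8547 genes of both tables that had a window. CCAAT was held by 20 (55.6%, against 37.5% of all genes and 41.4% of those of both tables) and CCGGAAG by 7 (19.4%, against 7.83% and 17.1%). CACGTG was held by 5 (13.9%, against 6.86% and 10.2%), among them Hnrnpd. TTCNNNGAA was held by 2 (5.56%, against 8.13% and 7.02%), of which Hnrnph1 is one, and of the 5 windows of Hnrnph1 the printed one alone holds it. Among genes that fell in tumor, 8 of 9 with a window held GGGCGG and 5 of 9 held CCAAT. Among genes that rose, 4 of 6 held GGGCGG and 4 of 6 held CCAAT. These are matches of letters in a window and say nothing about binding.

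Within a library, levels were compared between genes as normalized counts per kilobase of exon, given as the share of the summed level of the 40 genes or as the percentile among the 11809 genes of both tables with a length. The length merged the exons of every annotated transcript of a gene, those with retained introns included. Shares, percentiles and ratios between genes therefore depend on the annotation. Tumor and stroma were normalized separately, so these shares are set side by side as a description with no test. In WT tumor the hnRNP genes made up 70.8% ± 0.488 (SD, n = 4) of the summed level and the SR genes 19.5% ± 0.510. In WT stroma the hnRNP genes made up 61.0% ± 1.71 and the SR genes 25.4% ± 1.41. The 4 CLK genes took 0.648% ± 0.0323 in WT tumor and 4.22% ± 0.657 in WT stroma, and the ranges did not overlap.

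Hnrnpab, which encodes an hnRNP of the A/B type, led in WT tumor at 10.9% ± 0.43 (SD) of the summed level, and held 4.19% ± 0.186 in WT stroma. Before division by length, Hnrnpu had the highest mean count in WT tumor, at 56135.5 against 36289 for Hnrnpab. The merged exons of Hnrnpu measure 11599 bases and those of Hnrnpab 2782. Hnrnpa1, a broadly acting splicing repressor, held 9.68% ± 0.598 in WT tumor and 8.45% ± 1.61 in WT stroma, where the libraries of the 2 fractions overlapped. Hnrnpf, which binds runs of G, held 9.02% ± 0.11 in WT tumor and 4.08% ± 1.08 in WT stroma. In stroma the highest share belonged to Hnrnpa2b1, a close relative of Hnrnpa1, at 8.49% ± 1.43, against 4.99% ± 0.269 in WT tumor. Srsf5 ranked 3 there at 6.44% ± 0.82, against 1.51% ± 0.0992 in WT tumor.

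The widest gap between the fractions was that of Hnrnpll, the Hnrnpl paralog known for repressing Cd45 variable exons in activated T cells. Its normalized counts were 66.9, 65, 48.3 and 43 in WT tumor and 734, 447, 337 and 231 in WT stroma, in tables normalized separately. The per-kilobase level of Hnrnpl was 774 to 1122 times that of Hnrnpll in WT tumor and 875 to 1279.7 times in IL-6 KO tumor, against 2.78 to 6.64 times in WT stroma and 1.73 to 5.74 times in IL-6 KO stroma. The merged exons measure 5953 bases for Hnrnpl and 11677 for Hnrnpll, and the mean counts in WT tumor were 26100 and 55.8. Among the genes of both tables with a length, Hnrnpll thus sat at a median percentile of 5.96 in WT tumor and of 62 in WT stroma.

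The PTB pair also differed in balance. Ptbp1, the general repressor of exons flanked by pyrimidine tracts, stood at 1.94 to 2.27 times the per-kilobase level of Ptbp3, the form best known from blood cells, in WT tumor. In WT stroma the ratio was 0.541 to 1.11, and in IL-6 KO libraries it was 2.13 to 3.16 in tumor and 0.348 to 1.26 in stroma. Mean counts in WT tumor were 20724 for Ptbp1 and 15516 for Ptbp3, over merged exons of 4740 and 7480 bases. Clk1 sat at a median percentile of 42.3 in WT tumor and 87.2 in WT stroma, and Clk4 at 39.2 and 77.9. In bulk libraries such as these, fewer cells of a type and less RNA per cell cannot be told apart.

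**Figure D1:**
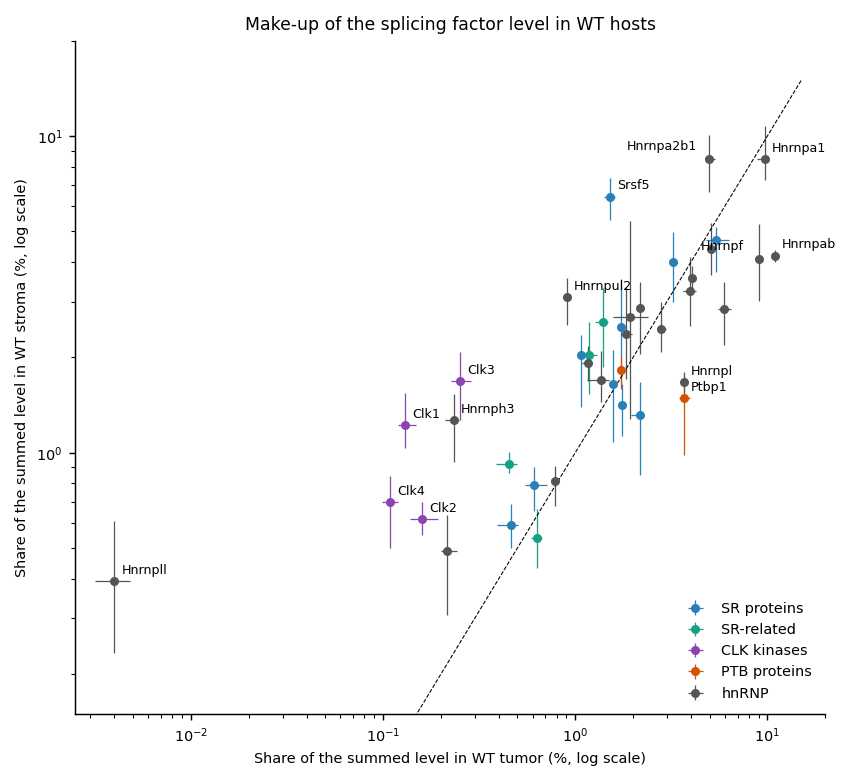
Each point is one of the 40 genes, with its mean share (%) of the summed per-kilobase level in the 4 WT tumor libraries on the x axis and in the 4 WT stroma libraries on the y axis, both on log scales. Bars run from the lowest to the highest library and the dashed line marks equal shares. The 4 CLK genes and Hnrnpll lie above the line, while Hnrnpab, Hnrnpf and Hnrnpl lie below it.

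The comparison of IL-6 KO with WT hosts asks how leukemic cells differ when the host lacks IL-6. In tumor, 16 of the 40 genes (40%) passed limma's test at a Benjamini-Hochberg adjusted p under 0.05, against a background of 19.8% of the 14493 genes tested. Of these 6 were higher in IL-6 KO (10.6% of all genes were) and 10 were lower (9.16% of all genes were). Among called genes the falls reached further than the rises, as log2 fold changes ran from -0.83 (Hnrnph1) to -0.24 (Hnrnpdl) below 0 and from 0.19 (Ptbp1) to 0.39 (Srsf4) above it. The median over all 40 genes was -0.01, as was that of all genes tested. At an unadjusted p under 0.05 there were 20 of the 40, against 35.1% of all genes, and for 18 of the 40 the genotypes did not overlap, against 25.6%. The background holds genes of every level, and the 40 genes varied less between libraries than it did. Their median residual SD in tumor was 0.136 on the log2 scale, against 0.212 over all genes tested. How much of the excess over the background goes with this smaller spread was not tested. By family, 9 of 20 hnRNP genes, 2 of 10 SR genes, 2 of 4 SR-related genes, 2 of 4 CLK genes and 1 of 2 PTB genes passed. All fold changes are on the log2 scale of normalized count + 1, as IL-6 KO minus WT, with the standard error of the fit.

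**Figure D2:**
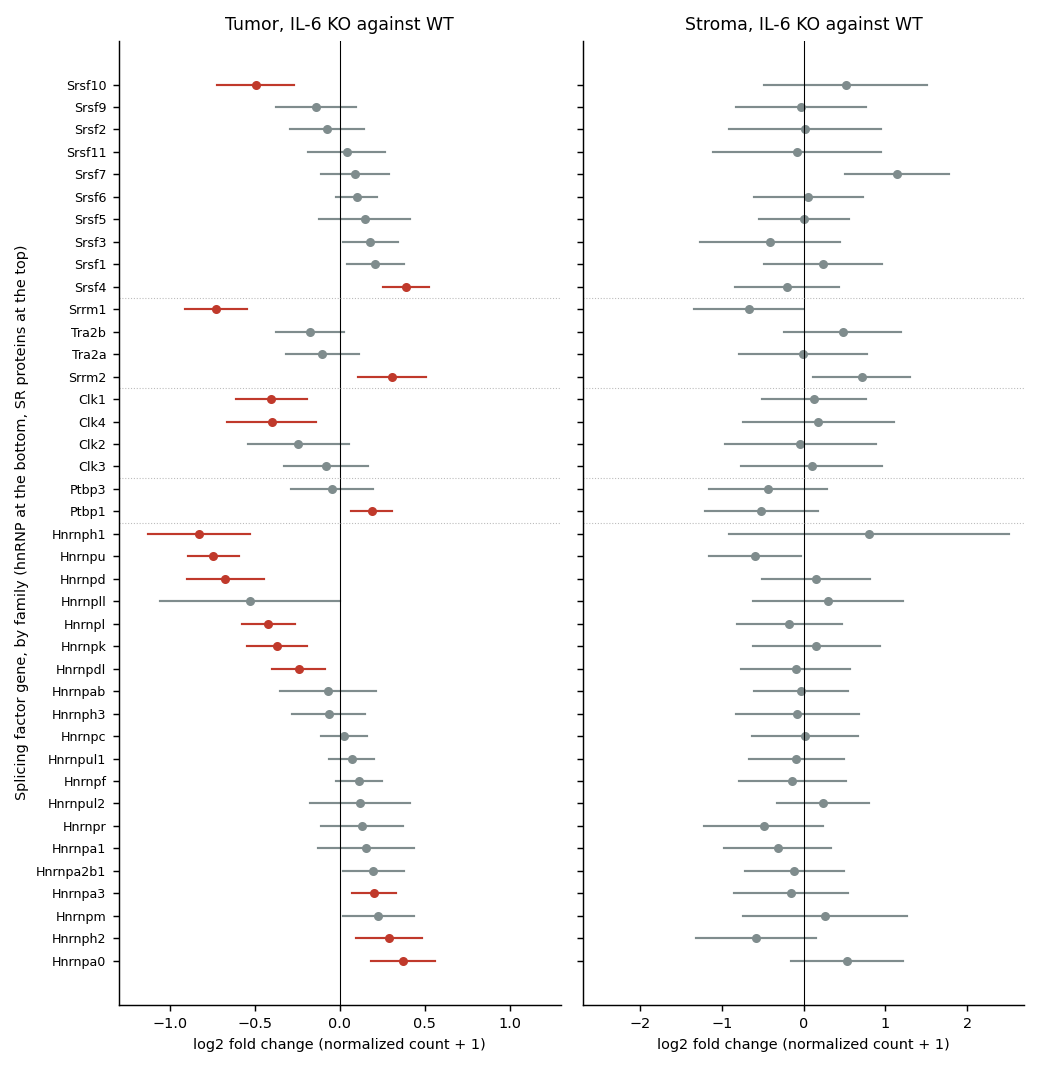
Log2 fold change (normalized count + 1) of IL-6 KO against WT for each of the 40 genes in tumor (left) and stroma (right), with 95% intervals from limma; red marks an adjusted p under 0.05 and the x axes differ in range. In tumor 10 genes lie below 0 and 6 above it in red, and no gene is red in stroma, where the intervals are wider.

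Of the SR proteins, Srsf4 rose and Srsf10 fell. Srsf4 (gene ENSMUSG00000028911.16, chr4:131873617-131901706, plus strand of GRCm38 in GENCODE vM21) encodes SRp75, one of the longest SR proteins. Its normalized counts were 4409.6, 4537, 4830.4 and 4476 in the WT tumor libraries and 5805, 6342, 5798 and 6006 in the IL-6 KO tumor libraries. Every IL-6 KO library was above every WT library, with a log2 fold change of 0.39 ± 0.06 (95% interval 0.26 to 0.53, limma adjusted p = 0.0037), or 1.31-fold. Srsf10 (ENSMUSG00000028676.17, chr4:135855747-135869908, plus strand) encodes an SR protein that represses splicing when dephosphorylated, as after heat shock. It stood at 4818, 6144, 4525 and 4839 in WT and 3268, 3898, 3613 and 3556 in IL-6 KO tumor. The groups did not overlap, and the fall was 29.1% (log2 fold change -0.50 ± 0.10, limma adjusted p = 0.01). Copies of Srsf10 with near-identical sequence held 2.39% of its own level in tumor.

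The other SR genes did not pass. Srsf1, the SF2/ASF protein that activates many exons, came nearest at 21453, 22520.3, 20982 and 22658 in WT and 25394, 29076, 23706 and 23424 in IL-6 KO tumor. Its groups did not overlap, but its log2 fold change of 0.21 ± 0.08 had a limma adjusted p of 0.0798. Srsf2 (SC35) stood at 18011, 23089.5, 16671 and 18614 in WT and 17162, 19705, 17672 and 17437 in IL-6 KO tumor, with a log2 fold change of -0.08 ± 0.10. For Srsf3, the smallest SR protein and an export adaptor, the values were 14995, 15096, 14178 and 14767 against 17408, 14589, 17989 and 17051. IL-6 KO tumor 2 lay among the WT libraries there, and the log2 fold change was 0.18 ± 0.07 (limma adjusted p = 0.107). Srsf5 had 7619, 6938, 7421 and 6778 against 7888, 10264, 7528 and 6560.4 (log2 fold change 0.15 ± 0.12). Srsf7, which also acts in mRNA export, had 7192, 7714, 7166 and 7378 against 7018, 9433, 7716 and 7352 (0.09 ± 0.09). Both overlapped between genotypes, and the remaining Srsf6, Srsf9 and Srsf11 had log2 fold changes between -0.14 and 0.10.

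The SR-related genes split. Srrm1 (ENSMUSG00000028809.16, chr4:135320484-135353321, minus strand) and Srrm2 encode SRm160 and SRm300, large matrix proteins that work as a pair of coactivators in splicing. Srrm1 stood at 9425, 11667, 9814 and 10381 in WT and 5875, 6122, 6856 and 6003 in IL-6 KO tumor. No library overlapped, and Srrm1 fell by 39.7% (log2 fold change -0.73 ± 0.08, 95% interval -0.91 to -0.55, limma adjusted p = 0.001). Srrm2 stood at 22371, 20089.9, 20681 and 22313 in WT and 27372, 30908, 23400.2 and 24424 in IL-6 KO tumor, and rose 1.24-fold (log2 fold change 0.31 ± 0.09, limma adjusted p = 0.0397). Tra2b, which activates exons rich in GAA repeats, had 6601, 6743, 7294 and 7118 against 5722, 5445, 7215 and 6337 and did not pass (log2 fold change -0.17 ± 0.09). Its paralog Tra2a had a log2 fold change of -0.10 ± 0.10.

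Among the CLK kinases Clk1 and Clk4 fell. Clk1 had 1154, 1225, 1419 and 1212 in WT and 930.4, 1049, 926 and 879.7 in IL-6 KO tumor, without overlap, a fall of 24.4% (log2 fold change -0.40 ± 0.09, limma adjusted p = 0.0163). Clk4, its closest relative, had 706, 810.3, 813 and 666 against 565, 599, 631 and 474, also without overlap (-0.40 ± 0.12, limma adjusted p = 0.0385). Clk2 and Clk3 did not pass, at log2 fold changes of -0.24 ± 0.13 and -0.08 ± 0.11. The per-kilobase share of the 4 CLK genes was 0.617% to 0.688% in WT tumor and 0.488% to 0.593% in IL-6 KO tumor.

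The 2 largest falls were in hnRNP genes. Hnrnpu (ENSMUSG00000039630.10, chr1:178321108-178337797, minus strand) encodes the scaffold attachment protein SAF-A, which binds chromatin and nascent RNA. It stood at 55508, 56951, 57461 and 54622 in WT and 31317, 33707, 37758 and 31661 in IL-6 KO tumor. The groups were far apart relative to their spread, and Hnrnpu fell by 40.3% (log2 fold change -0.74 ± 0.07, 95% interval -0.90 to -0.59, limma adjusted p = 0.000439). Hnrnph1 (ENSMUSG00000007850.16, chr11:50376990-50386528, plus strand), which binds runs of G near splice sites, had 10971, 17352, 13640.3 and 11602 against 7192, 7008, 8427 and 7109. Its WT libraries were spread, yet the lowest of them exceeded the highest IL-6 KO library, and the fall was 43.7% (log2 fold change -0.83 ± 0.13, 95% interval -1.13 to -0.53, limma adjusted p = 0.00423).

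Hnrnpd (ENSMUSG00000000568.15, chr5:99955935-99978938, minus strand) encodes AUF1, which also binds AU-rich elements and promotes decay of the mRNAs that carry them. It had 10027, 13657, 12733 and 11208 in WT and 6793, 7541, 8209.8 and 7144 in IL-6 KO tumor. No library overlapped, and Hnrnpd fell by 37.4% (log2 fold change -0.68 ± 0.10, limma adjusted p = 0.00341). Hnrnpdl, its paralog, fell by 15.5% (log2 fold change -0.24 ± 0.07, limma adjusted p = 0.0389), with 6118 to 7135 in WT and 5245 to 6029 in IL-6 KO tumor. Hnrnpl (ENSMUSG00000015165.16, chr7:28808541-28822266, plus strand), which binds CA repeats, had 26385, 27247, 26165 and 24603 against 18449, 21353, 20499 and 17863. It fell by 25.3% with no overlap (log2 fold change -0.42 ± 0.07, limma adjusted p = 0.00507), while the scarce Hnrnpll had 41.3, 43.8, 31.4 and 35.4 in IL-6 KO tumor and did not pass (log2 fold change -0.53 ± 0.24, limma adjusted p = 0.143). Hnrnpk, a binder of C-rich RNA and DNA, had 29708, 34049.7, 30699 and 27360.5 against 21888, 25299.5, 24514 and 22588, and fell by 22.5% (log2 fold change -0.37 ± 0.08, limma adjusted p = 0.0126).

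**Figure D3:**
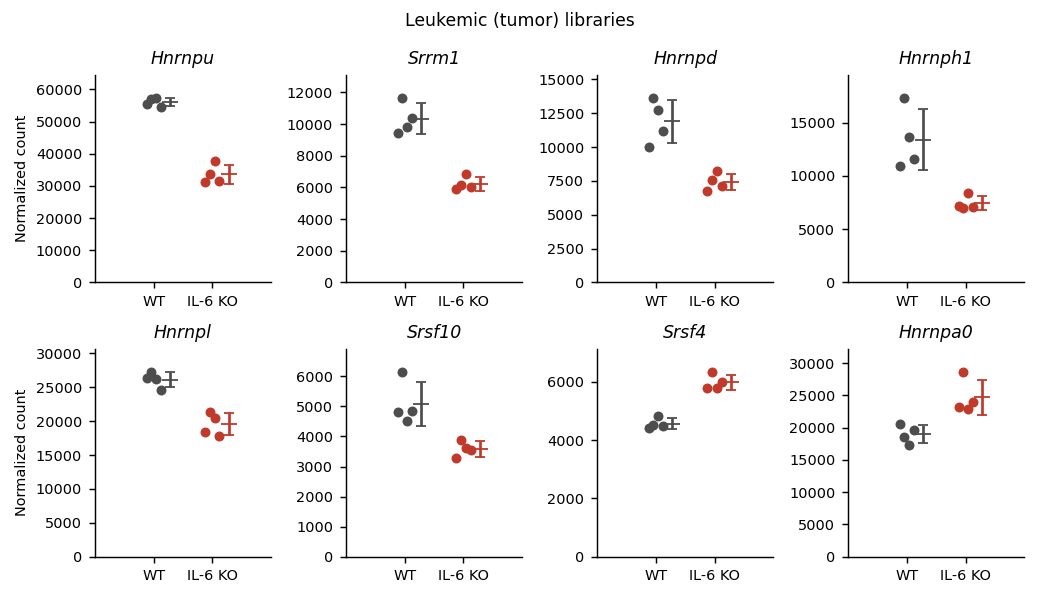
Normalized count (y axis, from 0) of 8 genes in the 4 WT (grey) and 4 IL-6 KO (red) tumor libraries, one point per library in the order 1 to 4, with mean and SD beside them. For each of the 8 genes the points of the genotypes do not overlap, with IL-6 KO lower for Hnrnpu, Srrm1, Hnrnpd, Hnrnph1, Hnrnpl and Srsf10 and higher for Srsf4 and Hnrnpa0.

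Hnrnpa0, Hnrnpa3 and Hnrnph2 rose, as did Ptbp1. Hnrnpa0 (ENSMUSG00000007836.6, chr13:58125879-58128556, minus strand), a single-exon gene whose product binds AU-rich elements, had 20546, 18575, 17376 and 19699.5 in WT and 23268, 28632, 22911 and 23958 in IL-6 KO tumor. The rise was 1.29-fold with no overlap (log2 fold change 0.37 ± 0.09, limma adjusted p = 0.016). Hnrnpa3 had 32561, 33055, 31396 and 33744 against 38045, 35037, 39795 and 37748 (log2 fold change 0.20 ± 0.06, limma adjusted p = 0.0361). Its 13 near-identical copies in the tumor table held 2.03% of its level. Ptbp1 had 22158, 20286, 19905 and 20548 against 23583, 23707, 23415 and 23598 (log2 fold change 0.19 ± 0.05, limma adjusted p = 0.0374), and Ptbp3 had 15395, 16519, 15491 and 14659.7 against 15254, 11856, 17361 and 16209.5 with a log2 fold change of -0.05 ± 0.11. Hnrnph2, an X-linked paralog of Hnrnph1, rose, with 4183, 4038, 4106 and 3973 in WT and 4895, 4262, 5718 and 5160.3 in IL-6 KO tumor (log2 fold change 0.29 ± 0.09, limma adjusted p = 0.0429). The 2 paralogs thus moved in opposite directions, and the per-kilobase ratio of Hnrnph1 to Hnrnph2 was 1.96 to 3.21 in WT tumor and 1.03 to 1.23 in IL-6 KO tumor.

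The hnRNP genes with the highest per-kilobase share in WT tumor, Hnrnpab, Hnrnpa1 and Hnrnpf, did not pass. Hnrnpa1 had 36889, 34507, 37935 and 36048 in WT and 42374, 29811, 46890.0 and 44780.0 in IL-6 KO tumor, with IL-6 KO tumor 2 below and the other three IL-6 KO libraries above every WT library (log2 fold change 0.15 ± 0.13). Hnrnpa2b1 had 39088, 39427, 41403 and 36541 against 46886, 38616, 49000.1 and 45388, and the same library was again the low one (0.20 ± 0.08, limma adjusted p = 0.11). Hnrnpc, which keeps cryptic exons out by binding U tracts, had 15141, 14814, 13941 and 13554 against 14467, 13826, 15354 and 14665 (0.02 ± 0.06). For Hnrnpc the 95% interval was -0.11 to 0.16 under the scaling of the main fit. Hnrnpc passed once the trend with GC content and length was removed (below). The other 7 hnRNP genes that did not pass, apart from Hnrnpll, were Hnrnpab, Hnrnpf, Hnrnph3, Hnrnpm, Hnrnpr, Hnrnpul1 and Hnrnpul2, with log2 fold changes from -0.07 to 0.23.

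These calls differ in how far they depend on single libraries and on scaling. Hnrnpd, Hnrnph1, Hnrnpl, Hnrnpu, Srrm1 and Srsf4 passed under all 10 other settings and with each of the 8 tumor libraries left out. Among those settings, the changes of pseudocount and filter could move genes at such levels little. Hnrnpk, Hnrnpa0 and Srsf10 passed in all 8 such runs, and Clk1 in 7, without IL-6 KO tumor 4 being the exception (limma adjusted p = 0.0535). Clk4 passed in 3 of the 8, Hnrnpdl, Ptbp1 and Srrm2 in 2 and Hnrnpa3 and Hnrnph2 in 1, the run without IL-6 KO tumor 2. In total 9 (without IL-6 KO tumor 4) to 22 genes (without IL-6 KO tumor 2) passed, and in the latter run Hnrnpa1, Hnrnpa2b1, Hnrnpab, Hnrnpf, Hnrnpm and Srsf3 passed as well. Quantile normalization left 1 gene higher and 10 lower, whereas removing the trend of each library with GC content and length gave 10 higher and 5 lower. Under that removal Clk1, Clk4, Hnrnpa0, Hnrnpdl, Hnrnpk, Ptbp1 and Srsf10 no longer passed, while Hnrnpa2b1, Hnrnpc, Hnrnpf, Hnrnpr, Srsf1 and Srsf3 did.

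GC content and length moved with the direction of change. The 10 genes that fell had a median exonic GC content of 42.8% and a median exon length of 6734.5 bases, and the 6 that rose 52.9% and 4554.5 bases. Over all protein-coding genes tested the same medians were 45.0% and 5841 bases for the 1001 that fell and 54.6% and 3769.5 bases for the 1466 that rose. Markers of other marrow cells moved as well: 9 of 12 mature neutrophil markers and 4 of 7 monocyte and macrophage markers were called higher in IL-6 KO tumor, against 10.6% of all genes. The neutrophil markers summed to 4707 to 5320 in WT tumor, and to 17064, 17763, 7230.5 and 15586 in IL-6 KO tumor 1 to 4. The monocyte and macrophage markers summed to 2192 to 2597 in WT and 3316 to 7043.5 in IL-6 KO tumor, and no marker of either list was at 0 in every library. The part of these cells in the values above was not tested.

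Other genes of the splicing machinery were counted from lists written from general knowledge, and the share of all genes that passed in tumor was 19.8% (10.6% higher, 9.16% lower). In tumor, 9 of 17 core snRNP and Lsm genes passed (5 higher, 4 lower), among them Snrpd2, a core Sm protein, at a log2 fold change of 0.46 ± 0.06 and Snrpe, another, at -0.73 ± 0.08. Of the U2 snRNP and U2AF genes, which recognise the branch point and the 3′ splice site, 6 of 17 passed (5 higher, 1 lower), with Sf3b2 at 0.45 ± 0.05 and Snrpb2 at -0.71 ± 0.12. Of the tri-snRNP, Prp19 complex and other Prp genes 8 of 29 passed (5 higher, 3 lower), with Prpf31 at 0.66 ± 0.08 and Prpf19 at -0.75 ± 0.14.

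The list of SR protein kinases, as written, held Srpk1, Srpk2, Prpf4b, Dyrk1a, Dyrk1b and Top1. All 6 had log2 fold changes below 0, as had the CLK genes, and 3 of 6 passed. Srpk1, the main cytoplasmic kinase of SR proteins, was at -0.42 ± 0.09 (limma adjusted p = 0.0141), while Srpk2 did not pass (-0.09 ± 0.09). Calls in these lists were not counted with the GC and length trend removed. Of 42 other RNA-binding regulators 6 were higher and 10 lower, with Acin1 at 0.51 ± 0.06 and Rbm17 at -0.82 ± 0.11. Of 15 exon junction complex and NMD genes 3 were higher and 1 lower, with Upf1, the NMD helicase, at 0.40 ± 0.07 and Magoh at -0.37 ± 0.08. List medians of the log2 fold change lay between -0.32 (the kinases) and 0.12 (tri-snRNP genes), against -0.01 over all genes. In stroma none of the 124 genes of these lists passed limma's test, and 3 had an unadjusted p under 0.05, against 9.15% of all genes.

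In stroma, none of the 40 genes passed limma's test at an adjusted p under 0.05, against 0.0082% of 12202 genes tested, which is 1 gene. At an unadjusted p under 0.05 there were 4 of 40, or 10%, against 9.15% of all genes, and 3 of 40 did not overlap between genotypes, against 5.79%. The counts were thus near the background. Stroma libraries were less alike, with a median residual SD over the 40 genes of 0.355 on the log2 scale against 0.136 in tumor, so that the median 95% interval reached 0.693 to either side of a fold change, against 0.204 in tumor.

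The smallest p belonged to Srsf7, with 611, 796, 1142 and 716 in WT and 1639, 2128, 1546 and 1735 in IL-6 KO stroma. All IL-6 KO libraries were above all WT libraries, at a log2 fold change of 1.14 ± 0.29 (95% interval 0.50 to 1.77), with a limma adjusted p of 0.324. Srrm2 had 2469, 2628, 3476 and 3621 against 5325, 5493, 4921 and 4076, again without overlap (log2 fold change 0.71 ± 0.27, limma adjusted p = 0.467). Hnrnpu had 3799.6, 4153, 3474 and 3859 against 2774, 2118, 2323 and 2973, with every IL-6 KO library below every WT one (-0.60 ± 0.26, limma adjusted p = 0.527). Srrm1 had 1575, 1308, 1014 and 1616 against 918, 576, 916 and 1079.7, which overlapped (-0.67 ± 0.31, limma adjusted p = 0.541). For Hnrnpu, Srrm1 and Srrm2 the sign was that seen in tumor.

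Of the next 2 by p, Hnrnph2 had 384, 333, 269 and 337 in WT and 171, 288, 263 and 177 in IL-6 KO stroma (-0.58 ± 0.34). Hnrnpa0 had 608, 675, 842 and 691 against 969, 1204, 643 and 1381 (0.53 ± 0.32). Both overlapped between genotypes. Ptbp1 had 859.5, 687, 424 and 672 against 366, 485, 500.4 and 454 (-0.51 ± 0.32), with the WT library 3 inside the IL-6 KO range. Hnrnph1 varied most of the 40 genes, with 1432, 924, 2858 and 637 in WT and 7480.1, 1493, 5412 and 370.1 in IL-6 KO stroma. Its IL-6 KO libraries spanned its WT libraries on both sides, and its 95% interval ran from -0.91 to 2.52. Srsf10 was similarly spread in IL-6 KO stroma, at 509, 1276, 1435 and 308, against 523, 588, 416 and 533 in WT stroma.

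**Figure D4:**
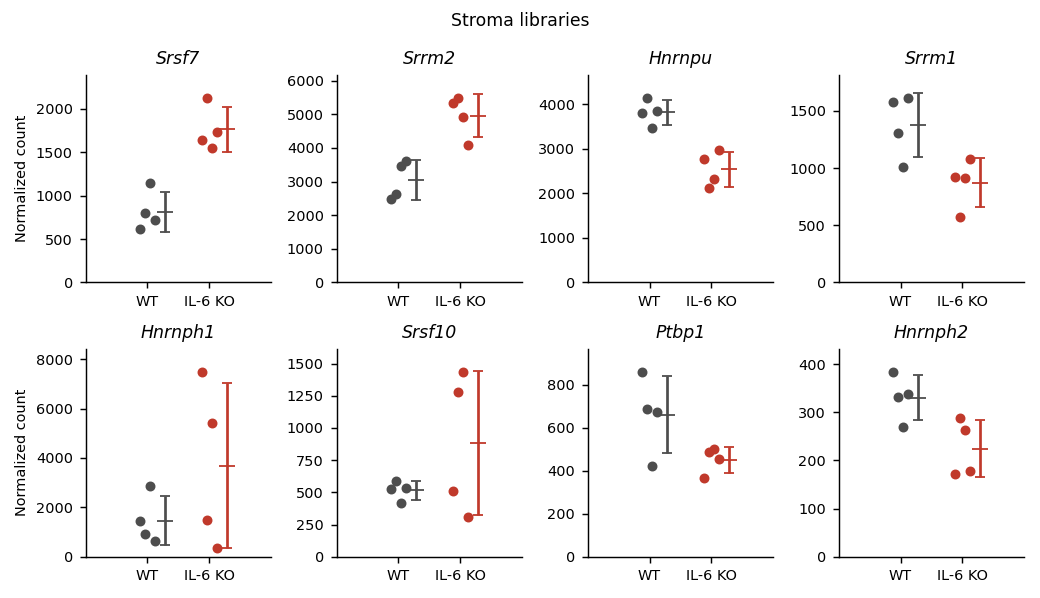
Normalized count (y axis, from 0) of 8 genes in the 4 WT (grey) and 4 IL-6 KO (red) stroma libraries, one point per library in the order 1 to 4, with mean and SD beside them. Srsf7 and Srrm2 are higher and Hnrnpu is lower in IL-6 KO without overlap, though none passed the adjusted threshold, and the IL-6 KO libraries of Hnrnph1 run from 370.1 to 7480.1.

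Mature neutrophil markers summed to 7865 to 15206 in WT stroma and 8196 to 33821 in IL-6 KO stroma, with 0 of 12 called and 4 at an unadjusted p under 0.05 by limma. Erythroid markers summed to 102809 to 148578 in WT and 41377 to 178681 in IL-6 KO stroma. The mesenchymal and endothelial markers summed to 334 to 601 in WT and 189 to 1691 in IL-6 KO stroma. Their mean log2 level was 5.42 ± 0.22 in WT and 4.62 ± 0.49 in IL-6 KO stroma (SD, n = 4). An exact permutation test of that level gave p = 0.0286, the smallest that 4 libraries against 4 can reach. The test was run for every marker list in both fractions without adjustment, and this was the smallest p in stroma. Across the other stroma lists the permutation test gave p = 0.143 to 0.743. None of the mesenchymal and endothelial markers was called by limma. The 3 megakaryocyte markers measured summed to 49.6 to 208 in WT and 247 to 839 in IL-6 KO stroma. Only 2 of them passed the filter for limma, and neither was called. They moved in opposite directions, at log2 fold changes of 2.16 and -1.12, so the sums do not show a rise shared by the list. For the mean log2 level of these markers the permutation p was 0.343. The part of these cells in the values above was not tested.

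Srsf1 had 2472, 1599, 2580.1 and 1862 in WT and 2778, 2427, 3730.3 and 1469.6 in IL-6 KO stroma, and Srsf3 1614, 1560.0, 1003 and 729.9 against 1380.0, 529, 1245 and 645. Tra2b had 636, 464, 361 and 410.2 against 820.0, 814, 513 and 485. All of these overlapped between genotypes. Clk1, which was lower in IL-6 KO tumor, had 873, 854, 876 and 1067 against 1169.6, 1093, 1168 and 662 in stroma. In IL-6 KO stroma libraries 1 to 3 were above all WT libraries and library 4, the one rich in CT010467.1, was below them. Clk4 had 300.3, 435, 338 and 416 in WT and 178, 516, 429 and 764 in IL-6 KO stroma, with its IL-6 KO libraries again to both sides of the WT ones. Srsf2 showed the same, at 1462, 1423, 1381 and 939 in WT and 1888, 558, 2578 and 1043 in IL-6 KO stroma.

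The other genes given by library overlapped between genotypes in stroma. Srsf5, the SR gene with the highest share in WT stroma, had 2239.6, 2494, 2254 and 2511 in WT and 2085, 2710.1, 2188 and 2593 in IL-6 KO stroma, and its 95% interval was -0.55 to 0.56. Hnrnpl, called lower in tumor, had 1039, 997, 905 and 784 against 576, 1042, 968 and 779 (log2 fold change -0.17 ± 0.30, 95% interval -0.82 to 0.47). Hnrnpd, also called lower in tumor, had 1594, 991, 1179 and 938 against 1640.5, 1272, 1374 and 931 (0.15 ± 0.30, -0.50 to 0.81). Both intervals include 0. That of Hnrnpl also includes its tumor value of -0.42, while that of Hnrnpd does not include its tumor value of -0.68. Srsf4, called higher in tumor, had 514, 768, 760.0 and 625 against 490.0, 561, 690.4 and 560.0 (-0.20 ± 0.29). Hnrnpk had 2279, 1753, 2427 and 1386 against 3523, 1950.2, 2515 and 1197 (0.16 ± 0.36). In both, the IL-6 KO libraries reached below the lowest WT library. Hnrnpll had 461, 439, 331 and 882 in IL-6 KO stroma, where library 4 was the highest of the 8 stroma libraries, and Ptbp3 had 1227, 1412, 1237 and 1197 in WT against 1663, 1003, 627 and 734 in IL-6 KO stroma. Hnrnpa1 had 3519, 2145, 2335 and 2029 against 2189, 1976, 2471 and 1398, Hnrnpa2b1 6838, 5529.6, 3967 and 4644 against 4357, 4958, 4491 and 5274, and Hnrnpc 1334, 971, 935 and 766 against 1266, 943, 1062 and 776. Hnrnpll, Ptbp3, Hnrnpa1, Hnrnpa2b1 and Hnrnpc each overlapped between genotypes. Pseudogene copies held 25.9% of the level of Hnrnpa1, 19.9% of that of Hnrnpa3 and 12.1% of that of Srsf10 in stroma, so the stroma values of these genes are uncertain. For Hnrnpm the gene with matching sequence is March2, a protein-coding gene whose own stroma level was 60.1% of that of Hnrnpm.

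Whether the genotype difference itself differed between tumor and stroma was tested over 10887 genes as the tumor log2 fold change minus the stroma one. None of the 40 genes passed at a limma adjusted p under 0.05 (0.00919% of all genes did, 1 gene), and 5 had an unadjusted p under 0.05, or 12.5%, against 8.76% of all genes. Srsf7 differed by -1.05 ± 0.34 (95% interval -1.77 to -0.32, limma adjusted p = 0.406) and Ptbp1 by 0.70 ± 0.25 (0.16 to 1.24, limma adjusted p = 0.438). Hnrnph2 differed by 0.87 ± 0.34 (0.15 to 1.60) and Srsf4 by 0.60 ± 0.25 (0.07 to 1.12). Both had been called higher in tumor, at 0.29 and 0.39, and had log2 fold changes of -0.58 and -0.20 in stroma. For Hnrnpu the difference was -0.15 ± 0.27 (-0.71 to 0.42) and for Srrm1 -0.06 ± 0.33 (-0.75 to 0.63). For Hnrnpd it was -0.83 ± 0.38 (-1.64 to -0.02, limma adjusted p = 0.558). The 95% intervals of the 40 genes reached a median of 0.780 to either side.

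The annotation of the 40 genes bears on what a gene-level value holds. In GENCODE vM21, 29 of them (72.5%) have at least one transcript marked as a target of NMD, against 28.8% of 12857 protein-coding genes of either table, and 32 (80%) have a transcript with a retained intron, against 58.1%. Among the genes called lower in tumor 8 of 10 have an NMD transcript, among those called higher 3 of 6 and among those not called 18 of 24. Over all protein-coding genes tested the same counts were 370 of 1001 and 371 of 1466 for those that fell and rose. The median number of annotated transcripts was 9.5 for the set and 5 for all. The tables sum the transcripts of a gene, so productive and NMD forms were not separated.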

How the data were processed

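RNA from mCherry+ leukemic cells (tumor) and mCherry-negative cells (stroma) sorted from bone marrow was sequenced from rRNA-depleted, directional libraries in 4 groups of 4. Samples were grouped by the genotype, fraction and number in their titles. Per the submitters' processing notes the build was mm10 and the tools were Salmon 1.3.0 and DESeq2 1.28.1, and per the study's methods salmon corrected for GC content and sequence bias. The authors deposited, for tumor and stroma separately, normalized counts per gene, a signal scaled between libraries. They do not resolve into whole reads, so depth per library is unknown and no interval of counting error was computed. The authors' tables of fold changes and p-values were not used.

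Values were tested as log2(normalized count + 1) with limma 3.58.1 in R 4.3.3 (moderated variances with a mean trend), keeping genes whose mean exceeded 10. Tests were two-sided, p-values were adjusted over all genes tested by the Benjamini-Hochberg procedure, and the threshold was 0.05. Adding 1 understates the change of low genes. Tumor and stroma were fitted separately with genotype as the only term. Their difference was fitted over genes passing in both tables, with array weights per fraction. Marker lists were compared by sums. The mean log2 level of each marker list was compared by a two-sided exact permutation test in tumor and in stroma, without adjustment across lists. Results of that test are given here for stroma only. Gene models came from GENCODE vM21, in which all 40 genes were found, and windows before starts from RefSeq (GRCm38.p6). Copies were transcripts of another gene at 97% identity or more over 150 nucleotides or more (BLAST 2.17.0). Summaries and figures were made with pandas 2.3.3, SciPy 1.17.1 and matplotlib 3.10.9 in Python 3.11.15, and the fits were tested on simulated data first.

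Alternatives were pseudocounts of 0.5 and 5, no filter, a mean over 50, quantile normalization, median centring, array weights (equal weights for the difference), a loess (span 0.3) on GC content and exon length subtracted from every library, a replicate block, trend removal with the block, and each library left out. The 40 genes, the lists and the tests were chosen with earlier results of these data known. Values in every library were given for up to 12 genes called in tumor with the smallest p, up to 6 with the smallest p in stroma, up to 4 with the smallest adjusted p for the difference, and 18 fixed genes (Srsf1, Srsf2, Srsf3, Srsf5, Srsf7, Tra2b, Hnrnpa1, Hnrnpa2b1, Hnrnpc, Hnrnpk, Hnrnpu, Hnrnpl, Hnrnpll, Ptbp1, Ptbp3, Clk1, Clk4 and Srrm2). From each related list the 2 genes with the smallest p in each direction could be named, and the genes of the SR protein kinase list were all named. The other genes were given by range and counts. Rn7s1, CT010467.1 and Gm26917 were named after their values were seen.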

Additional observations from a re-analysis of the deposited data

Results flagged for a closer look

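In each of the 160 sets of 4 libraries (40 genes in 4 groups), the highest and lowest library were compared with the nearest of the others by Dixon's ratio, and 6 stood out at the 95% critical value for 4. Chance alone gives about 1 in 20 such sets, or 5%, and the 6 of 160 found here lie below that share. Of the 6, 4 lie in stroma. In tumor, Hnrnpab stood at 46449 in IL-6 KO tumor 2, against 30580 to 31739 in the other IL-6 KO libraries. Hnrnph1 stood at 8427 in IL-6 KO tumor 3, against 7008 to 7192 in the others, which leaves it below every WT library. In WT stroma 4, Clk1 stood at 1067 (854 to 876 in the others) and Srsf2 at 939 (1381 to 1462 in the others). In IL-6 KO stroma 4, the library rich in CT010467.1, Clk1 stood at 662 (1093 to 1169.6 in the others) and Tra2a at 1170.4 (440.2 to 518 in the others). Without IL-6 KO tumor 2 the number of genes called in tumor was 22, and without IL-6 KO stroma 4 the number called in stroma was 0. No gene of the set differed between tumor and stroma in its genotype effect by the test of that difference at the adjusted threshold.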

How the results depend on the processing

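The count of 16 genes called in tumor was kept at 16, with the same genes, under both pseudocounts, no filter, a mean over 50 and median centring. The pseudocounts and filters could change these genes little. Clk4, the lowest of the 16, averaged 749 in WT and 568 in IL-6 KO tumor. It was 11 under quantile normalization (1 higher, 10 lower), 19 with array weights (9 and 10), 15 with the GC and length trend removed (10 and 5, of which 9 were among the 16), and 14 with that trend removed and the replicate block (8 and 6). The replicate block alone gave 12 (2 and 10). The labels do not say whether equal numbers pair the WT and IL-6 KO libraries. Deviations from the group mean of same-numbered libraries correlated at -0.019 to -0.00028 across genes in tumor and at -0.029 to 0.126 in stroma. With 4 libraries a group, such correlations cannot settle whether a pairing exists. The median of all genes was -0.01 and became 0.07 with the trend removed. With each library left out the count ran from 9 to 22, with 2 to 11 higher and 7 to 11 lower. It was 10 without WT tumor 2, WT tumor 3 or IL-6 KO tumor 1, 9 without IL-6 KO tumor 4, 11 without WT tumor 1, and 12 without WT tumor 4 or IL-6 KO tumor 3. No called gene turned direction under any alternative or leave-out run, against 10 of the 24 others in tumor and 18 of the 40 in stroma. Called genes were selected for changes large relative to their error, so this contrast adds no support to the calls. With the GC and length trend removed, with and without the block, the sign turned in tumor for Hnrnph3 (0.079), Tra2b (0.089), Ptbp3 (0.18) and Tra2a (0.085), and in stroma for Hnrnpa2b1 (0.12), Hnrnph3 (0.12), Hnrnpdl (0.068), Srsf9 (0.023), Tra2a (0.17), Hnrnpf (0.0051) and Hnrnpa3 (0.094). With array weights the sign turned in tumor for Ptbp3 (0.043) and Hnrnpul2 (-0.016), and in stroma for Hnrnph3 (0.0008), Hnrnpab (0.046) and Srsf2 (-0.42). Under quantile normalization the sign turned in tumor for Hnrnpul1 (-0.037), Srsf11 (-0.028) and Hnrnpc (-0.041), and in stroma for Srsf6 (-0.0004), Srsf5 (-0.040), Srsf2 (-0.043) and Hnrnpc (-0.031). Under median centring the sign turned in stroma for Srsf5 (-0.023), Srsf2 (-0.011) and Hnrnpc (-0.0072). With single libraries left out, log2 fold changes spanned 0 in tumor for Hnrnpc (-0.0055 to 0.048), Hnrnpul2 (-0.034 to 0.20), Ptbp3 (-0.12 to 0.068), Srsf11 (-0.039 to 0.079), Srsf2 (-0.14 to 0.018) and Srsf7 (-0.0006 to 0.14), and in stroma for Clk2 (-0.33 to 0.29), Clk3 (-0.29 to 0.35), Clk4 (-0.11 to 0.59), Hnrnpa2b1 (-0.24 to 0.026), Hnrnpa3 (-0.33 to 0.11), Hnrnpab (-0.093 to 0.039), Hnrnpc (-0.098 to 0.17), Hnrnpdl (-0.23 to 0.023), Hnrnph3 (-0.24 to 0.078), Hnrnpk (-0.086 to 0.43), Hnrnpm (-0.055 to 0.74), Srsf11 (-0.47 to 0.30), Srsf2 (-0.31 to 0.42), Srsf5 (-0.057 to 0.069), Srsf6 (-0.086 to 0.19), Srsf9 (-0.24 to 0.15) and Tra2a (-0.34 to 0.13). In stroma and for the difference, 0 genes were called under every alternative and leave-out run. The causes of these changes were not tested. The number of 4 libraries a group and the unknown depth limit all comparisons.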
